A study of Rattus norvegicus with 15 samples.

Results

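The genes described here control sterol regulatory element-binding proteins (SREBPs) or bring cholesterol into the intestinal cell. They are Srebf1, Srebf2, Scap, Insig1, Insig2, Npc1l1 and Stard4 and were chosen by name. On the array, 13 probes carried one of these 7 gene names, of 22503 probes with a gene name, and each probe was kept apart. Srebf1, Srebf2 and Insig2 had 2 probes each, Insig1 had 4, and Scap, Npc1l1 and Stard4 had 1 each. All 13 probes were well above background on all 15 arrays, so none was lost to the filter on dim probes.

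Wistar rats served as nondiabetic controls. The Goto-Kakizaki (GK) strain was bred from Wistar stock and becomes diabetic spontaneously without obesity. The study asked how the intestine that first meets food after Roux-en-Y gastric bypass (RYGB) differs from the same stretch of gut without bypass. There were 3 groups of 5 male rats, a Wistar, a GK-Sham-PF and a GK-S-30 group, with 1 array per rat. GK-S-30 rats had RYGB with a Roux limb (RL) of 30 cm. GK-Sham-PF rats had the gut cut 16 cm beyond the ligament of Treitz and rejoined without rearrangement, and were then pair-fed. Both operations were made at an age of 16 wk, and the Wistar rats were age-matched controls. Tissue was taken 14 wk after operation from rats fasted overnight, from the RL of GK-S-30 rats and from the matching stretch of jejunum in the other groups. GK-Sham-PF and Wistar rats differ in strain, diabetes, operation and feeding at once, and these cannot be told apart. In pieces of whole gut, fewer cells of a type and less RNA per cell cannot be told apart either.

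SREBPs are made as precursors held in the membrane of the endoplasmic reticulum. SCAP carries them to the Golgi, where proteases release the part that enters the nucleus and switches on genes of lipid synthesis. When sterols are plentiful, INSIG proteins hold SCAP back, so that the precursor stays uncleaved. SREBP2, from Srebf2, mainly drives cholesterol synthesis, and SREBP1, from Srebf1, mainly drives fatty acid synthesis. Insig1 is itself a target gene of the nuclear SREBPs. In the small intestine NPC1L1 takes up cholesterol from the lumen at the brush border, and STARD4 moves cholesterol between membranes inside the cell.

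Probe sequences are given where they help to read the values. The paired Srebf2 probes are shown because they did not receive the same call. The Srebf1, Insig2 and Stard4 probes are shown because the 60 bases of each cover a longer genomic interval, as does the dimmer Srebf2 probe. Such an interval can mark an exon junction, which was not checked. The sequences are as deposited, 5′ to 3′, with no base singled out in capitals, and positions are on rn4. The brighter Srebf2 probe lies at chr7:120548399-120548458 on the plus strand, and the dimmer one covers chr7:120569291-120570130 on the plus strand. The Srebf1 probe covers chr10:46463470-46463986, the Insig2 probe chr13:33333061-33333298 and the Stard4 probe chr18:25645901-25648404, all on the minus strand.
Srebf2, brighter probe: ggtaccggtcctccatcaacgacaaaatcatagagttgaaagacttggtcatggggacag
Srebf2, dimmer probe: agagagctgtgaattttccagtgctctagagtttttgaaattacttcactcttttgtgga
Srebf1, dimmer probe: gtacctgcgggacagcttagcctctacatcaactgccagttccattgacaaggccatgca
Insig2, brighter probe: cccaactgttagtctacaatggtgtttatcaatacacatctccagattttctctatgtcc
Stard4: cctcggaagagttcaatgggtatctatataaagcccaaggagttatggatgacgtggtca

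The other Srebf1 probe lies at chr10:46462235-46462294, the Scap probe at chr8:114761108-114761167 on the plus strand, and the other Insig2 probe at chr13:33331220-33331279. The 4 Insig1 probes lie on the minus strand within chr4:2577508-2578760, and the 2 in the middle abut. They are named probe 1 to probe 4 from the brightest to the dimmest, and probes 2 and 3 are the abutting pair at chr4:2578292-2578348 and chr4:2578349-2578408. The deposited table gave no position for the Npc1l1 probe.

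Promoter sequence is shown for Insig1, which had the largest differences, and for Srebf2, the gene of the factor that drives cholesterol synthesis. Each window holds the 250 bases before a transcription start in RefSeq, assembly GRCr8, read 5′ to 3′ in the direction of the gene. Capitals mark the motifs found on either strand. The Insig1 window is chr4:8057770-8058019 on the minus strand and the Srebf2 window chr7:115543057-115543306 on the plus strand.
Insig1: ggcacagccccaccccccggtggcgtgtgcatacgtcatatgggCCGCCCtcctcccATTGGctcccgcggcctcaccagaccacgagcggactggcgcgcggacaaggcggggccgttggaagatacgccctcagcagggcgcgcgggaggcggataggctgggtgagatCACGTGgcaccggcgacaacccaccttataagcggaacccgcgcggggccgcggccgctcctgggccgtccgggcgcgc
Srebf2: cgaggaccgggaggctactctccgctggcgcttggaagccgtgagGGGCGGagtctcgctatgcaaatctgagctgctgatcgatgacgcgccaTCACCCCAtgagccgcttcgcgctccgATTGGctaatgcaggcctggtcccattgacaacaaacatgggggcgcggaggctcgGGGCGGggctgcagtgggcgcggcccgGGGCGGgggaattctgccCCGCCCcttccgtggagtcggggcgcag

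The Insig1 window holds a CCAAT box on the minus strand 193 bases before the start, beside a GC box, GGGCGG, on the same strand at 206 bases, and an E-box, CACGTG, at 79 bases. The Srebf2 window holds a CCAAT box on the minus strand at 129 bases and 4 GC boxes. The sterol regulatory element was searched as TCACNCCAC and was in no window of the 6 members with an entry. The shorter TCACCCCA, searched after the sequences had been seen and overlapping the longer motif, lies in the Srebf2 window at 156 bases. Of 33469 windows of this length, 0.974% held TCACNCCAC, 1.14% held TCACCCCA, 34.0% a CCAAT box, 30.5% a GC box and 5.59% the E-box. These letters describe the windows and show no binding. Stard4 had no entry.

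Intensities were quantile-normalized and are given on the log2 scale. The 75th percentile of the signal as deposited ran from 206.6 to 357.2 over the arrays, 66.7% to 74.8% of probes were well above background, and pairs of arrays correlated at 0.955 to 0.994. The dimmest were Wistar replicate 3 and, in the sham group, GK-Sham-PF replicate 5. The arrays lay on 4 slides, of which only 1 held both Wistar and GK-Sham-PF rats and only 1 both GK groups. A probe passed the test when limma gave a Benjamini-Hochberg adjusted p under 0.05 over all 17029 tested probes. Epithelial markers such as Vil1, Cdh1 and Epcam were above background on 15 of 15 arrays, and the summed intensity of the 15 epithelial markers measured overlapped between the groups, at 989690 to 1202061 in Wistar, 998780 to 1152346 in GK-Sham-PF and 1096876 to 1155788 in GK-S-30. That of 8 smooth muscle markers did not. It was 165029 to 211641 in GK-S-30 against 47780 to 107911 in GK-Sham-PF and 60003 to 92824 in Wistar, and 5 of these 8 genes rose from the sham group to GK-S-30, with none lower. The immune sum was lower in GK-S-30 than in Wistar, at 37349 to 54222 against 58464 to 75246, with 5 of 10 immune genes lower and 2 higher, and reached 52792 to 66386 in GK-Sham-PF. The neuron and glia sum of GK-S-30 lay below that of GK-Sham-PF, at 1332 to 1735 against 1741 to 2575, with 1 of 5 genes lower, and lay at 1603 to 2237 in Wistar. The sums of the other cell type lists overlapped in every comparison. A sum follows its brightest genes, and the mean log2 values of the lists differed from this in part. By that mean the immune list and the neuron and glia list overlapped in every comparison. The pancreatic acinar mean was 6.24 to 6.99 in Wistar, below 7.52 to 8.07 in GK-Sham-PF and 7.10 to 7.98 in GK-S-30. The part of these sums and means in the results below was not tested.

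From GK-Sham-PF to GK-S-30, 6 of the 13 probes rose and none fell. The 6 were all 4 Insig1 probes, the Stard4 probe and the dimmer Srebf2 probe, so that 3 of 7 genes had a probe that passed. By the brightest probe of each gene 2 of 7 rose, Insig1 and Stard4, where 4.93% of 13024 genes rose and 4.18% fell. Over all tested probes 8.36% passed in this comparison. The 5 arrays of one group did not overlap those of the other for the same 6 of 13 probes, against 8.41% of all tested probes. Srebf1, Scap, Insig2 and Npc1l1 had no probe that passed.

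**Figure D1:**
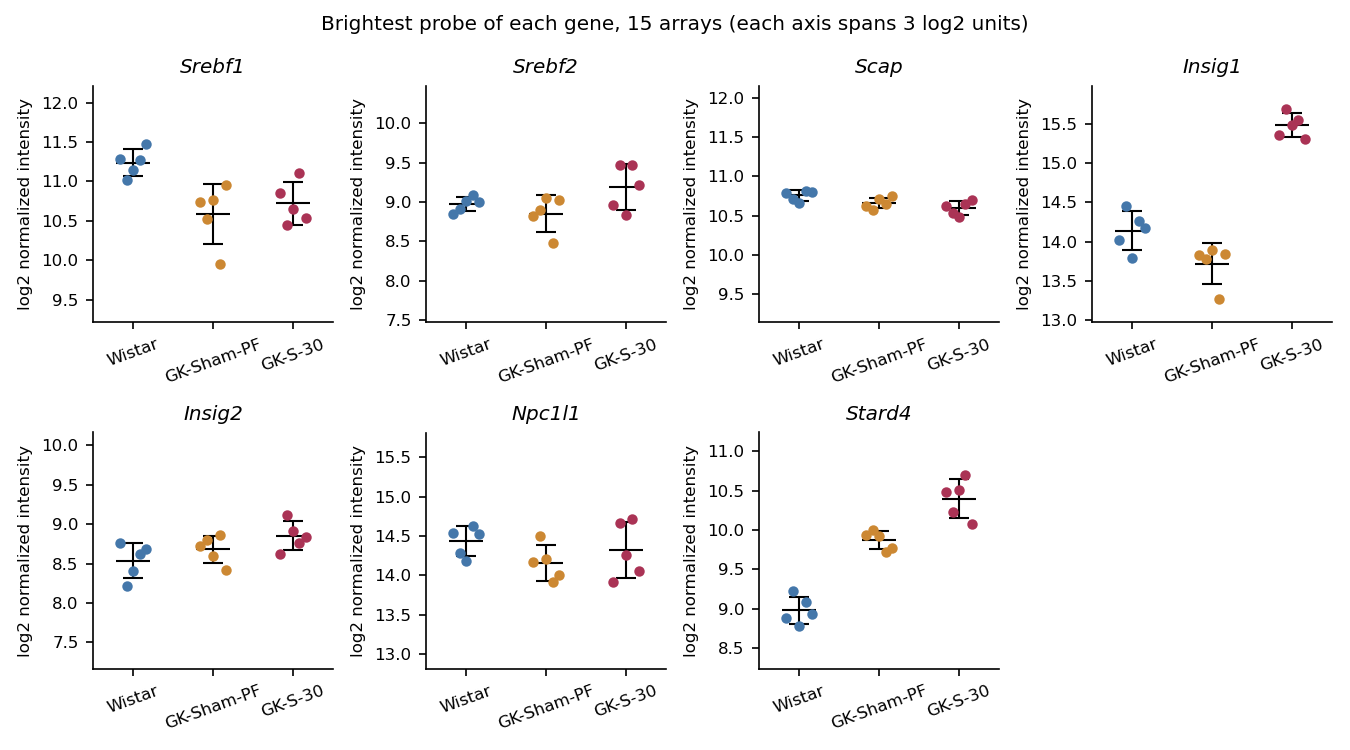
Log2 normalized intensity of the brightest probe of each gene on the 15 arrays, with 1 point per rat, the group mean as a bar and the SD (n = 5) as whiskers. Insig1 is highest in all 5 GK-S-30 arrays, from 15.31 to 15.69, and Stard4 steps up from Wistar to GK-Sham-PF to GK-S-30, while Srebf1 is highest in Wistar.

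Insig1, which encodes the sterol-sensing anchor of SCAP, had the largest differences of the 7 genes. On probe 1 the Wistar arrays read 14.02, 14.46, 13.79, 14.27 and 14.17 for replicates 1 to 5. GK-Sham-PF arrays read 13.83, 13.78, 13.89, 13.27 and 13.85, and GK-S-30 arrays read 15.36, 15.69, 15.49, 15.55 and 15.31. Every GK-S-30 array lay above every other array, whereas Wistar and GK-Sham-PF arrays overlapped. The rise from GK-Sham-PF to GK-S-30 was 1.76 on the log2 scale (SE 0.14, limma adjusted p = 6.83e-06), or 3.38-fold. Against Wistar it was 1.34 (SE 0.14, adjusted p = 7.62e-06), or 2.53-fold.

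The other Insig1 probes moved with the first. On probe 2 the Wistar arrays read 11.81, 12.30, 10.55, 12.03 and 11.95, GK-Sham-PF arrays 11.60, 11.68, 11.58, 10.92 and 10.70, and GK-S-30 arrays 13.34, 13.47, 13.35, 13.28 and 13.00. Probe 3, which abuts it, gave 9.69, 10.26, 8.52, 9.94 and 9.92 in Wistar, 9.49, 9.59, 9.59, 8.89 and 8.82 in GK-Sham-PF and 11.36, 11.56, 11.34, 11.37 and 11.09 in GK-S-30. Probe 4 gave 8.37, 8.92, 8.08, 8.65 and 8.64 in Wistar, 8.28, 8.27, 8.29, 7.63 and 8.26 in GK-Sham-PF and 10.19, 10.25, 10.17, 10.05 and 9.73 in GK-S-30. On each of these probes the lowest GK-S-30 array lay above the highest array of the other groups. The rises from GK-Sham-PF were 1.99 (SE 0.28, adjusted p = 0.000524), 2.07 (SE 0.26, adjusted p = 0.000283) and 1.94 (SE 0.17, adjusted p = 9.4e-06), or 3.98-fold, 4.20-fold and 3.83-fold.

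The abutting probes 2 and 3 were low on both dim arrays, where probes 1 and 4 were not low to the same degree. Without these arrays the rises on probes 1 to 4 were 1.77, 1.84, 1.95 and 1.97. Slide was then taken as a block, which rests this comparison on GK-Sham-PF replicates 4 and 5 and GK-S-30 replicates 1 and 2 of 1 slide, and the rises were 1.96, 2.60, 2.61 and 2.27 (adjusted p = 0.00169, 0.00782, 0.00693 and 0.00169). GK-Sham-PF replicate 4 was the lowest of its group on probes 1 and 4. This array also had the highest smooth muscle sum of its group, 107911, and the lowest epithelial sum, 998780. The part of these sums was not tested. Comp, which encodes a cartilage matrix protein, Tm7sf2, a sterol reductase, and Hmgcs1, the HMG-CoA synthase of the mevalonate route, followed Insig1 probe 1 most closely over the 15 arrays, at a Pearson r of 0.97, 0.97 and 0.96. These points share arrays and group means, and the coefficients are a description.

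**Figure D2:**
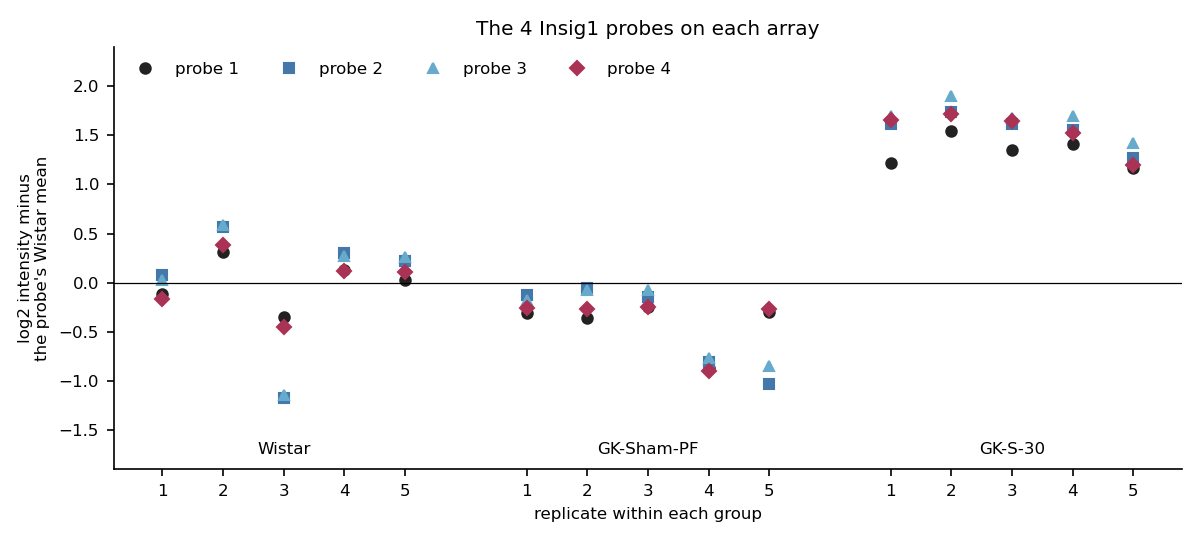
Log2 intensity of the 4 Insig1 probes on each array, as the difference from the probe's Wistar mean, by group and replicate. All 4 probes lie above their Wistar mean on all 5 GK-S-30 arrays, and probes 2 and 3 part from probes 1 and 4 on Wistar replicate 3 and GK-Sham-PF replicate 5.

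Insig2, the homologue whose transcription is not driven by nuclear SREBPs, had no probe that passed by limma in any comparison, with 1 of 6 tests at an unadjusted p under 0.05 and 0 of 6 by the methods' Tukey comparison. Its brighter probe read 8.76, 8.22, 8.40, 8.62 and 8.69 in Wistar, 8.72, 8.79, 8.60, 8.86 and 8.42 in GK-Sham-PF and 8.62, 9.11, 8.92, 8.76 and 8.84 in GK-S-30. The groups overlapped throughout. The GK-S-30 to GK-Sham-PF difference was 0.17, with a 95% confidence interval of -0.10 to 0.44 (adjusted p = 0.473). The dimmer probe differed by 0.05, with an interval of -0.43 to 0.53.

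To compare both INSIG genes within a rat, the log2 value of the brightest Insig2 probe was subtracted from that of the brightest Insig1 probe on each array. This difference shows only whether the genes changed unequally, since levels of different probes cannot be set against each other. Its GK-S-30 mean exceeded that of GK-Sham-PF by 1.58, with no overlap of arrays (exact permutation test, two-sided, p = 0.00794, adjusted p = 0.0119 over 6 comparisons). It was also larger than in Wistar by 1.02 (exact permutation p = 0.00794, adjusted p = 0.0119). With 5 arrays against 5, 0.00794 is the smallest p this test can give. The test took no account of slide, over which the groups were unevenly spread. In GK-Sham-PF it was smaller than in Wistar by 0.56 on average, in overlapping arrays (exact permutation p = 0.0397, adjusted p = 0.0476). That last call was lost with scaling to the 75th percentile (exact permutation p = 0.0794) and when any of 6 single arrays was left out.

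**Figure D3:**
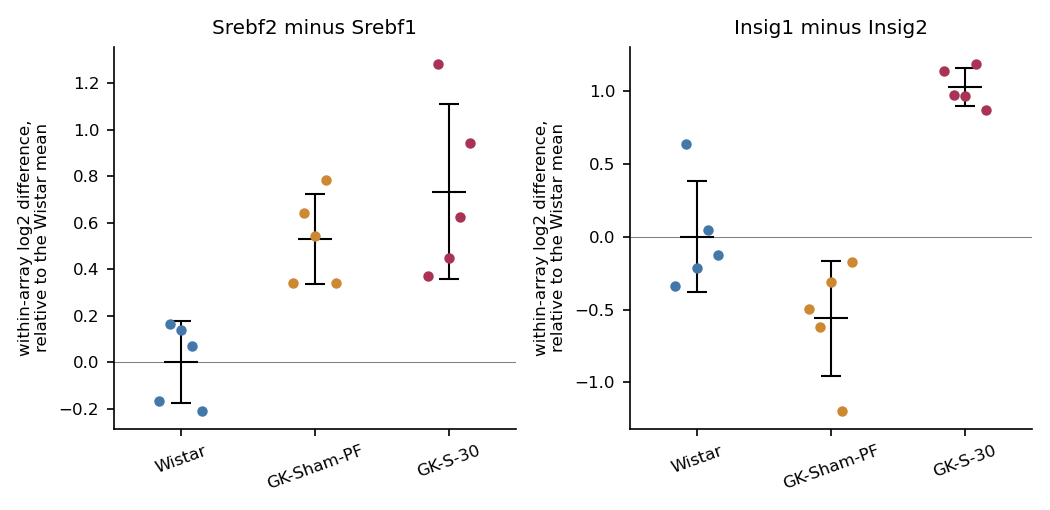
Within-array log2 difference of the brightest probes, Srebf2 minus Srebf1 and Insig1 minus Insig2, relative to the Wistar mean, with 1 point per rat, the mean as a bar and the SD (n = 5) as whiskers. Insig1 minus Insig2 was larger in GK-S-30 than in the other groups. Srebf2 minus Srebf1 was larger than in Wistar in both GK groups, where the Srebf1 probe was lower.

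Among the transcription factors, the Srebf2 probes did not share a call. The brighter probe read 8.85, 8.92, 9.02, 9.08 and 9.0 in Wistar, 8.82, 8.90, 9.05, 8.47 and 9.03 in GK-Sham-PF and 8.96, 9.47, 8.84, 9.47 and 9.21 in GK-S-30. GK-S-30 arrays reached higher but overlapped both other groups, and the difference from GK-Sham-PF was 0.34 (SE 0.14, adjusted p = 0.16), with an interval of 0.04 to 0.63. The dimmer probe read 4.93, 4.93, 5.81, 4.62 and 4.98 in Wistar, 4.73, 5.00, 5.09, 4.59 and 5.31 in GK-Sham-PF and 5.53, 5.63, 5.41, 5.93 and 5.55 in GK-S-30. GK-S-30 and GK-Sham-PF arrays did not overlap there, at a difference of 0.67 (SE 0.19, adjusted p = 0.0448), or 1.59-fold. The probe was dim, with a signal as deposited of 26.0 to 57.4, where the 75th percentile of the arrays was 206.6 to 357.2. The call of this dimmer probe stood close to the threshold and was lost under 19 of 28 alternatives, among them the slide block (0.63, adjusted p = 0.376). With normexp background correction the value was 0.23.

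Srebf1 was highest in Wistar rats. Its brighter probe read 11.28, 11.01, 11.14, 11.28 and 11.47 in Wistar, 10.74, 10.52, 10.77, 9.95 and 10.95 in GK-Sham-PF and 10.86, 10.45, 10.65, 11.11 and 10.53 in GK-S-30. All 5 Wistar arrays lay above all 5 GK-Sham-PF arrays, and 1 GK-S-30 array, replicate 4, reached into the Wistar range. GK-Sham-PF was lower than Wistar by a log2 difference of -0.65 (SE 0.17, adjusted p = 0.0305) and GK-S-30 by -0.52 (SE 0.17, adjusted p = 0.0417). GK-S-30 and GK-Sham-PF differed by 0.13, with an interval of -0.24 to 0.50 (adjusted p = 0.719). The dimmer probe covers a genomic interval longer than its own sequence and is the mean of 10 spots. It gave -0.58 (adjusted p = 0.0508) for GK-Sham-PF against Wistar and -0.40 (adjusted p = 0.105) for GK-S-30 against Wistar. It lay between 8.34 and 8.99 in Wistar, 7.65 and 8.44 in GK-Sham-PF and 8.12 and 8.72 in GK-S-30. GK-Sham-PF replicate 4 was the lowest array of all on both probes. Without it the brighter probe gave -0.49 (adjusted p = 0.0589) against Wistar, and leaving out Wistar replicate 1, 4 or 5 or GK-Sham-PF replicate 2 also ended that call (adjusted p up to 0.083). The call of GK-S-30 against Wistar was lost under 15 of 28 alternatives. They included leaving out any of 10 single arrays, namely Wistar replicates 1, 3, 4 and 5, GK-Sham-PF replicates 1 and 2 and GK-S-30 replicates 1, 2, 3 and 5, where the value was -0.55 to -0.45 (adjusted p up to 0.098). Within the slide that held Wistar replicate 1 and GK-Sham-PF replicates 1 to 3 the differences were -0.61 and -0.67, and as a block over the slides neither passed (adjusted p = 0.733 and 0.6).

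Srebf2 and Srebf1 were also set against each other on the same array, by the brightest probe of each. In GK-Sham-PF these probes differed from Wistar by -0.12 for Srebf2 and -0.65 for Srebf1, so Srebf2 itself did not rise there. In GK-S-30 the values against Wistar were 0.22 and -0.52. The log2 difference Srebf2 minus Srebf1 was larger than in Wistar by 0.53 in GK-Sham-PF and by 0.73 in GK-S-30, each without overlap of arrays (exact permutation p = 0.00794, adjusted p = 0.0119). Between the GK groups it differed by 0.20 (exact permutation p = 0.341). Fadd followed Srebf1 most closely over the arrays (r = 0.93), and Leprotl1 followed Srebf2 (r = 0.91).

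Scap, the escort of both SREBP precursors, passed by limma in no comparison. It read 10.78, 10.71, 10.66, 10.82 and 10.80 in Wistar, 10.62, 10.58, 10.71, 10.65 and 10.75 in GK-Sham-PF and 10.63, 10.53, 10.48, 10.64 and 10.69 in GK-S-30. The groups overlapped, and the SDs within groups were 0.07 to 0.09. GK-S-30 differed from GK-Sham-PF by -0.07, with an interval of -0.22 to 0.09 (adjusted p = 0.668), and from Wistar by -0.16, with an interval of -0.32 to -0.003 (adjusted p = 0.129). That last difference was the only 1 of 3 with an unadjusted p under 0.05 in limma, and the methods' Tukey comparison, without adjustment over the probes, called it too.

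Npc1l1, the brush border cholesterol transporter, was bright in all rats. It read 14.54, 14.28, 14.18, 14.63 and 14.53 in Wistar, 14.17, 14.50, 14.20, 13.91 and 14.00 in GK-Sham-PF and 13.91, 14.67, 14.25, 14.72 and 14.05 in GK-S-30. GK-S-30 arrays spread over the whole range of the other groups. The difference from GK-Sham-PF was 0.16, with an interval of -0.19 to 0.51 (adjusted p = 0.623), and that of GK-Sham-PF from Wistar was -0.27, with an interval of -0.62 to 0.08 (adjusted p = 0.402). Cyb5r3, a reductase of the endoplasmic reticulum, followed Npc1l1 most closely (r = 0.87).

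Stard4, the sterol carrier, passed in all 3 comparisons and each time in the same direction. Wistar arrays read 8.89, 9.22, 8.79, 9.09 and 8.93, GK-Sham-PF arrays 9.94, 10.00, 9.92, 9.73 and 9.78, and GK-S-30 arrays 10.49, 10.23, 10.51, 10.70 and 10.08. No 2 groups overlapped. GK-Sham-PF exceeded Wistar by 0.89 (SE 0.12, adjusted p = 0.000161), or 1.85-fold, and GK-S-30 exceeded GK-Sham-PF by 0.53 (SE 0.12, adjusted p = 0.0145), or 1.44-fold. GK-S-30 against Wistar gave 1.42 (SE 0.12, adjusted p = 7.59e-07), or 2.67-fold. With slide as a block the GK-S-30 to GK-Sham-PF difference was 0.61 (adjusted p = 0.149) and the GK-Sham-PF to Wistar difference 1.07 (adjusted p = 0.048). Gcnt3, a mucin-type glycan transferase, followed Stard4 most closely (r = 0.96).

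Between Wistar and GK-Sham-PF, 2 of the 13 probes passed, Stard4 higher and the brighter Srebf1 probe lower, and the same 2 were those whose arrays did not overlap. Over all tested probes 7.88% passed and 9.06% did not overlap, so 2 of 13 lay above each share by about 1 probe. All 4 Insig1 probes had lower means in GK-Sham-PF, by -0.39 to -0.43, and none passed (adjusted p = 0.0899 to 0.471). This count moved with 1 array. Without Wistar replicate 3, one of the dim arrays, 6 of 13 probes passed, and without both dim arrays 5 did. Within the slide that held both groups the 4 Insig1 differences were -0.09 to -0.19.

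Between Wistar and GK-S-30, 7 of the 13 probes passed, against 24.1% of all tested probes. The 4 Insig1 probes, Stard4 and the dimmer Srebf2 probe were higher and the brighter Srebf1 probe was lower, and 5 of 13 probes did not overlap, against 18.3% of all. The Insig1 probes gave 1.34 to 1.68. The dimmer Srebf2 probe gave 0.56 (adjusted p = 0.0477), a call lost under 19 of 27 alternatives, and the brighter one 0.22 (adjusted p = 0.279). With slide as a block, where only Wistar replicate 1 links the groups, 3 of 13 probes passed, namely Insig1 probes 1 and 4 and Stard4. The 3 comparisons share their arrays, so their values stand side by side and are not independent.

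**Figure D4:**
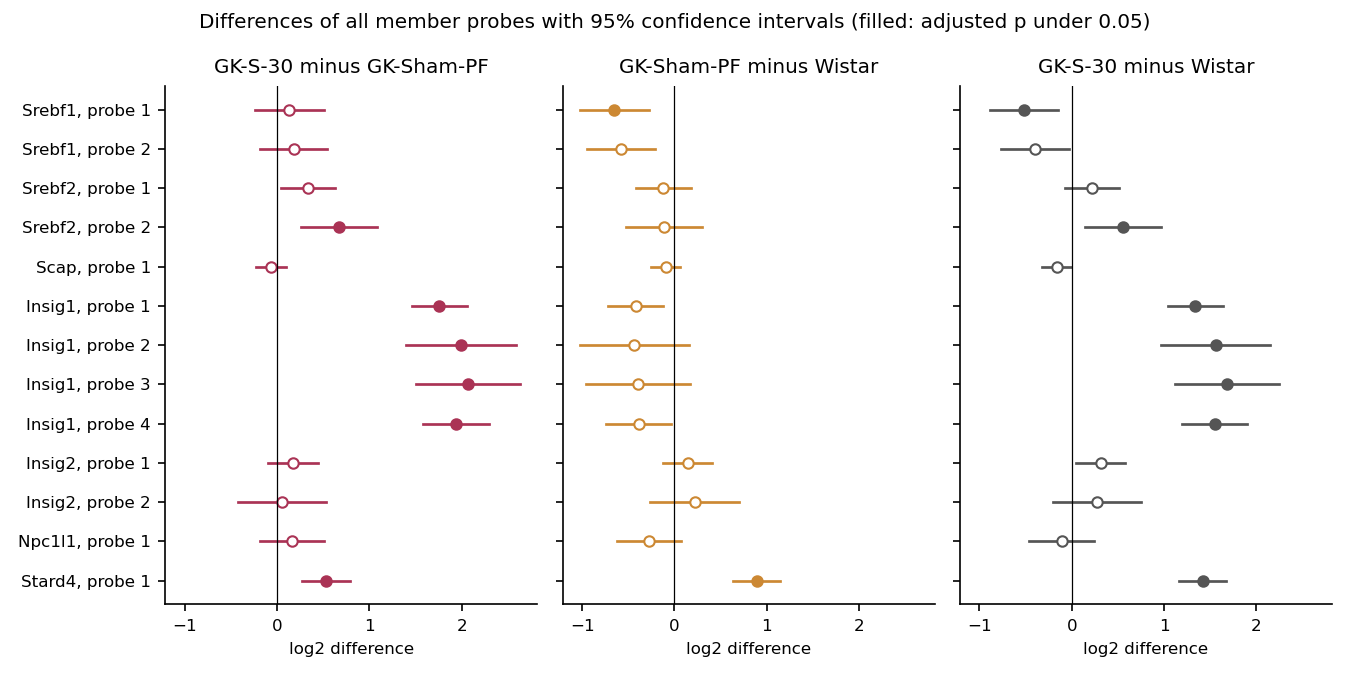
Log2 difference of each of the 13 probes in the 3 comparisons, with 95% confidence intervals from limma, filled where the adjusted p was under 0.05. The 4 Insig1 probes lie between 1.76 and 2.07 in the comparison of both GK groups, and the Scap and Npc1l1 intervals include 0 there.

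The genes on which SREBPs act were then read by the brightest tested probe of each gene, from lists of known members of each pathway. Of 13024 genes, 4.93% rose and 4.18% fell from GK-Sham-PF to GK-S-30, with a median difference of -0.03. Of 23 SREBP2 targets of cholesterol synthesis and supply, 21 rose and none fell, with a median of 1.34 and a range of 0.46 to 2.57. Sqle, the squalene epoxidase, rose by 2.07 (SE 0.24, adjusted p = 0.00015). Idi1, which makes dimethylallyl diphosphate, rose by 1.87, and Hmgcs1 and Msmo1, a sterol C4 oxidase, by 1.81 each. Mvd gave 0.62 (adjusted p = 0.09) and did not pass. The mean of every one of the 23 was higher in GK-S-30. Earlier results of these data had shown the synthesis genes of this list to be higher, so the count is no independent evidence.

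Of 15 SREBP1 targets of fatty acid synthesis, 5 rose and none fell, with a median of 0.38 and a range of -1.23 to 2.66. The mean was higher in GK-S-30 for 13 of the 15. Scd2, a stearoyl-CoA desaturase, rose by 2.66 (SE 0.31, adjusted p = 0.000154), Acsl3, which activates fatty acids, by 1.08, Me1, the malic enzyme, by 0.70, Lpin1, a phosphatidate phosphatase, by 0.65 and Acss2, which activates acetate, by 0.59. The central synthase Fasn gave 0.52 (adjusted p = 0.08).

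Of 28 genes of sterol uptake and intracellular sterol transfer other than Npc1l1 and Stard4, 5 rose and 1 fell, with a median of 0.05 and a range of -0.58 to 1.35. The largest rises of this list are not reported by gene. Below them Npc1, the lysosomal cholesterol exporter, rose by 0.65 (adjusted p = 0.0347), Anxa2 by 0.58 and the membrane raft protein gene Flot2 by 0.43. Mttp, which loads lipid onto apolipoprotein B, fell by 0.34.

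The machinery around the SREBP precursor was counted in the same way. Of 21 genes of SREBP cleavage and turnover, 1 rose and none fell, near the share of all genes that rose, with a median of -0.06. The 1 was Tmem97, a sterol-responsive gene that is also in the SREBP2 list, at 0.74 (adjusted p = 0.0104). Mbtps1 and Mbtps2, which encode the Golgi proteases that cut SREBPs, gave -0.06 and 0.06. Of 12 partners of NPC1L1 trafficking only Rab11a, which marks recycling endosomes, rose, by 0.31 (adjusted p = 0.0306). Of 14 regulators on the side of the liver X receptors (LXRs), which drive Srebf1 transcription, only Nr0b2 passed, and it fell by 2.38 (adjusted p = 0.0035). The LXR genes Nr1h3 and Nr1h2 gave -0.42 (adjusted p = 0.11) and -0.25 (adjusted p = 0.26).

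The same lists were counted between Wistar and GK-Sham-PF, where 3.96% of genes rose and 4.43% fell, with a median of 0.01. Of the 23 SREBP2 targets 1 rose and none fell, at a median of 0.21. Of the 15 SREBP1 targets Me1 and Acly, the ATP citrate lyase, fell, by 0.55 and 0.52. In the cleavage and turnover list 2 of 21 fell and none rose. They were Spring1, which encodes a Golgi protein needed for SREBP cleavage, at -0.70 (SE 0.14, adjusted p = 0.00574), and Pgrmc1 at -0.43 (adjusted p = 0.0114). Among the uptake genes Scarb1, a lipoprotein receptor, fell by 1.12 and Lipa, the lysosomal lipase, by 0.58, and on the LXR side Irs2 rose by 0.69. These last 3 and Acly were named after their values had been seen. No NPC1L1 partner of 12 passed by limma, with 1 at an unadjusted p under 0.05 and 1 by the Tukey comparison, both lower.

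Between Wistar and GK-S-30, 12.0% of genes rose and 13.5% fell, with a median of -0.02. The counts were 21 higher and 0 lower of 23 SREBP2 targets, 5 and 0 of 15 SREBP1 targets, 7 and 4 of 28 uptake genes, 2 and 5 of 21 cleavage and turnover genes, 1 and 0 of 12 NPC1L1 partners and 0 and 5 of 14 LXR-side genes. Spring1 was lower in GK-S-30 than in Wistar by a difference of -0.75 (adjusted p = 0.00163) and gave -0.04 between the GK groups (adjusted p = 0.90). Beside these counts the smooth muscle sum was higher and the immune sum lower in GK-S-30 than in Wistar, and the smooth muscle sum was higher and the neuron and glia sum lower than in GK-Sham-PF. Their part was not tested.

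**Figure D5:**
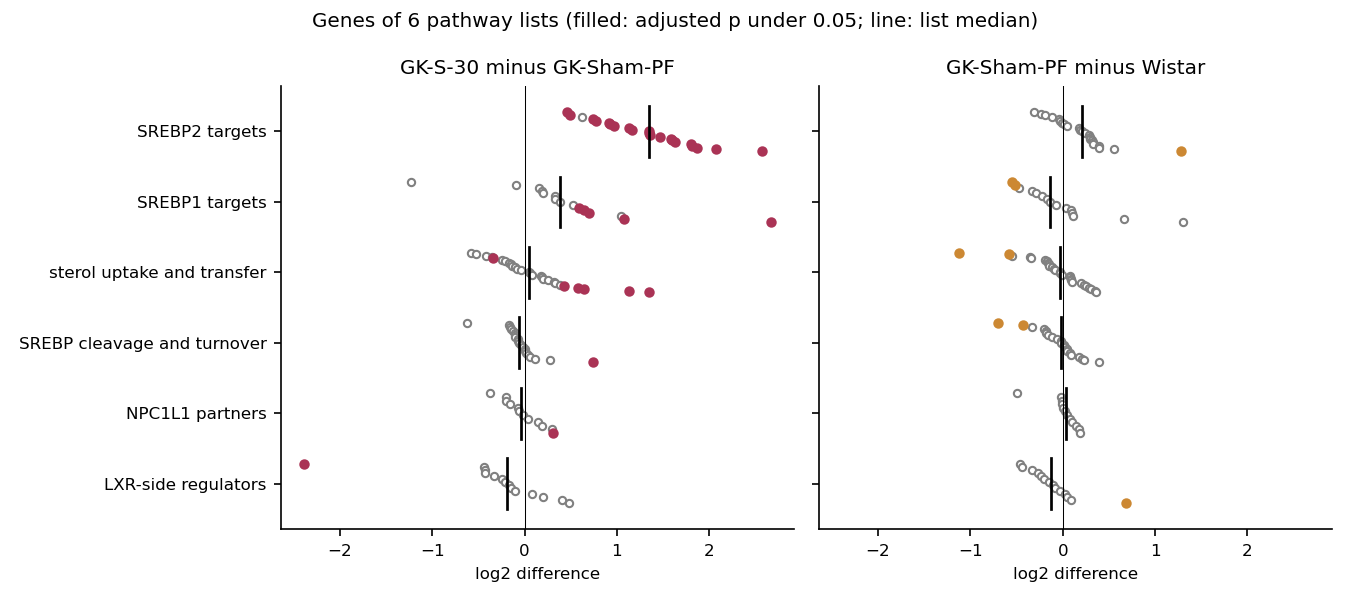
Log2 difference of each tested gene of the 6 lists, by its brightest probe, between both GK groups on the left and between GK-Sham-PF and Wistar on the right, with filled points at an adjusted p under 0.05 and a line at the list median. The SREBP2 list is centred at 1.34 on the left and 0.21 on the right, and the other lists lie nearer to 0.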

How the data were processed

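RNA of 15 rat intestinal samples was hybridised to one-colour Agilent whole rat genome arrays. Per the labels, the authors extracted the deposited intensity values with Feature Extraction 10.7 (10.7.3.1 in the file headers), and the deposited log2 table of the series holds their quantile-normalized values, used here as an alternative. Its scale was checked against each array's own signals. Background-corrected processed intensities were taken, outlier spots dropped, spots of a probe averaged on the log2 scale and 41012 non-control probes quantile-normalized. Tested were 17029 named probes (13024 genes) well above background on all arrays of 1 group or more. Symbols were updated through the RefSeq table. limma 3.58.1 (R 4.3.3) fitted the 3 groups without covariates, with Benjamini-Hochberg adjustment at 0.05. It was tried on simulated data with 200 changed probes and no slide effects. Of log2 changes of 0.5, 1 and 2 there, 28.4%, 73.1% and 92.4% were called between both GK groups. These rates hold for that number of changed probes, which was smaller than the 1423 that passed in the data. The number of arrays limits the precision. The members and the gene lists were chosen with earlier results of these data known. In each list at most 5 genes were named, those reported here with the largest differences that passed between both GK groups, or genes of SREBP cleavage that passed elsewhere. Marker, protease, receptor and likeness genes (the highest Pearson r of 13024) were named besides, and some genes of the lists, among them those with the largest rises in 2 lists, are counted but not reported here. Other scalings, filters, slide and replicate blocks, the methods' Tukey comparison and leaving out arrays were run as alternatives.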

Additional observations from a re-analysis of the deposited data

Results flagged for a closer look

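Of 39 sets of 5 arrays, 1 for each probe in each group, 4 held an array that stood apart by Dixon's ratio of its gap to the range, above the critical value of 0.71. Chance gives such an array in about 1 set in 20. GK-Sham-PF replicate 4 was the lowest array of its group on Insig1 probe 1, at 13.27 against 13.78 for the next (ratio 0.822), and on Insig1 probe 4, at 7.63 against 8.26 (ratio 0.96). Wistar replicate 3, a dim array, was the lowest of its group on Insig1 probe 2, at 10.55 against 11.81 (ratio 0.717), and on the dimmer Insig2 probe, at 6.16 against 6.98 (ratio 0.734).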

How the results depend on the processing

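All 4 Insig1 probes passed between both GK groups under every one of the 27 or 28 fits run for each, with values of 1.60 to 2.61. Of 1100 values of single probes under the alternatives, 1013 kept their side of the threshold (or, within a slide, their size), 65 lost and 16 gained a call and 6 moved within a slide. The sign changed for 11 of the 1013, none of them called in either fit and each at most 0.14 from 0 as reported, and for 0 values with a call. The calls that were lost belonged to Srebf1, the dimmer Srebf2 probe, Stard4 under the slide block and the Tukey test after adjustment, and Insig1 probes 2 and 3 against Wistar under the slide block. The cause was not tested. Scaling to the 75th percentile moved no median over all probes by over 0.1.

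Counts are given in the order GK-S-30 against GK-Sham-PF, GK-Sham-PF against Wistar and GK-S-30 against Wistar, where 1423, 1342 and 4104 of all probes and 6, 2 and 7 of 13 member probes passed. With slide as a fixed block 328, 210 and 268 of all probes passed, with 1 member in the second comparison and 3 in the third. The methods' Tukey comparison gave 2565 and 2374 probes in the first 2, with 4 members in the second, and after Benjamini-Hochberg 562, 826 and 2687, with 1 member in the second. With unnamed probes included 2187 and 6354 passed in the last 2. With only the brightest probe of each gene, 2 members passed in the first and 3 in the third comparison. Leaving out 1 array gave 939 to 1724, 998 to 1470 and 3363 to 4526 probes, and 5 to 6, 1 to 6 and 5 to 7 members. Without both dim arrays 5 members passed in the second.

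The within-array difference Insig1 minus Insig2 between GK-Sham-PF and Wistar was -0.55 with 75th percentile scaling, -0.71 without both dim arrays and -0.66 to -0.40 without single arrays, and lost its call in the first 2 settings and for 6 arrays. Replicate numbers pair no samples by the labels, and same-numbered arrays deviated from their group means together at r over 0.1 in only 3 of 15 pairs, -0.29 to 0.20. With the replicate number as a block, 963, 985 and 3351 probes passed, and 5, 1 and 5 members.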

Other observations

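A further probe without a gene name is annotated in the files as the transcript INSIG2a and was not counted among the members. Its log2 values were 5.68, 5.16, 4.95, 5.10 and 5.19 in Wistar, 4.60, 4.39, 4.38, 5.44 and 4.26 in GK-Sham-PF and 4.12, 5.40, 2.02, 4.55 and 3.80 in GK-S-30, where the third was not well above background. GK-S-30 against Wistar gave -1.24 (SE 0.45, limma adjusted p = 0.058), in a fit that also held the other unnamed probes. The named Insig2 probes gave 0.31 and 0.27 in the same comparison.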
